A study of Mus musculus with 10 samples.

Results

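Fibroblasts and mural cells form the stroma around the vessels of an endocrine gland, and 9 of the 29527 genes in the normalized table were followed as their markers in the pituitary intermediate lobe (IL). The 9 genes were taken by name, through their Ensembl identifiers: Pdgfra, Dcn and Lum for fibroblasts, Pdgfrb, Rgs5, Cspg4 and Enpep for pericytes, and Acta2 and Tagln for contractile smooth muscle. Bulk RNA of dissected mouse IL was sequenced in 4 WT samples, 3 p27-/- samples that lack Cdkn1b in every cell, and 3 p27-/-;Sox2+/- samples (compound mutants) that also lack 1 copy of Sox2, all from mice of 2 to 3 months and of both sexes. Both mutant groups thus share the p27 deletion, the mice were kept on a mixed background, and no group carried the Sox2 deletion alone. Against WT, Pdgfra, Lum and Enpep were lower in p27-/- IL, none of the markers passed the test in compound mutant IL, and Enpep was higher in compound mutant than in p27-/- IL. The Pdgfra and Lum calls were close to the threshold and were lost in most fits that left 1 sample out. All 3 calls against WT were lost when posterior lobe markers were added to the fit. The Enpep call between the mutants was lost without any 1 of the mutant samples.

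Mural cells are the pericytes and smooth muscle cells that wrap capillaries and larger vessels. Endothelial cells recruit them through PDGF-B, which binds the receptor encoded by Pdgfrb, while PDGF-A and PDGF-C signal mainly through the receptor encoded by Pdgfra on fibroblasts and on oligodendrocyte precursors. Fibroblasts deposit the collagen matrix whose fibrils are coated by small leucine-rich proteoglycans such as decorin (Dcn) and lumican (Lum). The IL itself, described in the study as avascular in the mouse, is a sheet of melanotrophs. In juvenile p27-/- IL, however, the study saw ectopic blood vessels by immunofluorescence, which shows protein and not RNA. The IL lies against the neural posterior lobe, with the stem cell layer on its other side.

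The melanotroph prohormone gene Pomc was between 18.003 and 19.005 on the log2 scale in all 10 samples. Cdkn1b, the targeted gene, still had values of 8.04 to 8.27 in p27-/- and 7.73 to 8.10 in compound mutant IL, below the 8.39 to 8.85 of WT, and Sox2 was 6.88 to 7.07 in compound mutants against 7.34 to 7.75 in WT. RNA of the neighbouring lobes differed between samples. The mean of 8 posterior lobe markers, each centred on its mean over all samples, was 0.63, -0.57, 0.74 and 0.87 on the log2 scale in WT replicates 1 to 4. It was -0.41, -0.31 and -0.03 in p27-/-, and -0.71, -0.76 and 0.54 in compound mutants. WT replicate 2 also held the most anterior lobe hormone RNA, with a mean of 1.65 for those genes against -0.87 to 0.60 elsewhere. In bulk RNA, fewer cells of a type and less RNA per cell cannot be told apart, so that a lower marker may reflect either.

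Levels were first ordered within each genotype per kb of exon, so that genes of different length could be compared. In WT IL, Dcn had the highest level, with a log2 value per kb of 9.81 ± 0.33 (SD, n = 4), followed by Rgs5 at 7.80 ± 0.53. Enpep (6.94 ± 0.16) and Lum (6.85 ± 0.36) came next, and their samples overlapped. Pdgfra (4.79 ± 0.41) and Acta2 (4.76 ± 0.31) also overlapped each other, and were followed by Tagln at 4.11 ± 0.16 and Pdgfrb at 3.64 ± 0.17. Cspg4 was far lower, at -0.27 ± 0.11. On the linear scale, WT Dcn thus stood at 899 normalized units per kb and WT Pdgfrb at 12.4. The order changed in places between genotypes. In p27-/- IL, Pdgfra (4.05 ± 0.13, n = 3) came below Acta2 and Tagln, although its samples overlapped those of Tagln. In compound mutant IL, Enpep (7.13 ± 0.03, n = 3) came above Rgs5 (6.97 ± 0.37), but the samples of both overlapped.

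**Figure D1:**
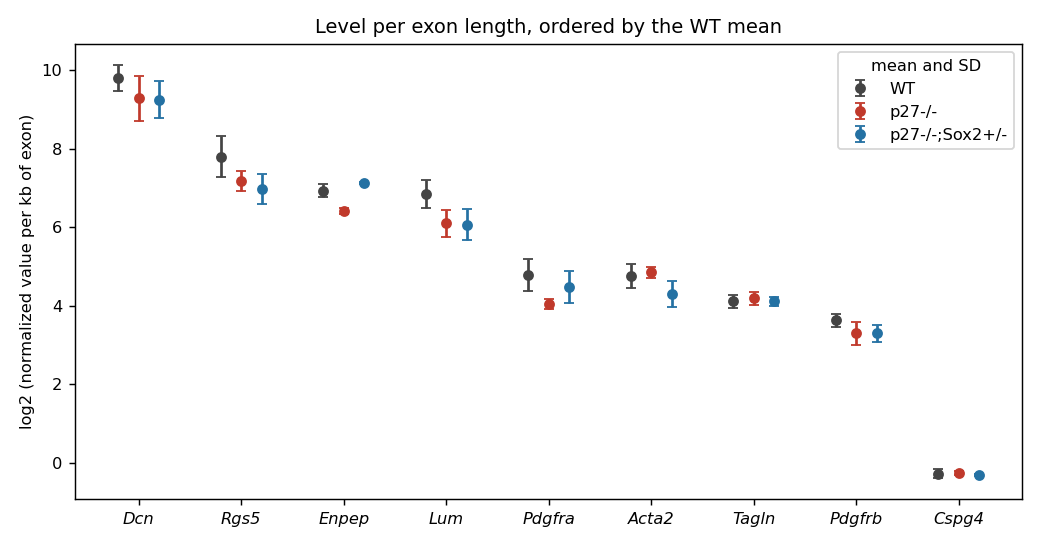
Points give the mean and bars the SD of the log2 normalized value per kb of exon (y axis) for the 9 markers (x axis), ordered by the WT mean, with WT (n = 4) in grey, p27-/- (n = 3) in red and p27-/-;Sox2+/- (n = 3) in blue. Dcn leads in all 3 genotypes and Cspg4 is lowest, while Enpep is the marker with compound mutant above WT and p27-/- below it.

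The fibroblast markers varied widely within genotypes. Pdgfra, the PDGF receptor of fibroblasts, had log2 values of 7.65, 6.95, 7.83 and 7.76 in WT replicates 1 to 4, 6.92, 6.66 and 6.81 in p27-/-, and 7.03, 6.96 and 7.70 in compound mutants. All p27-/- samples were below all WT samples, but p27-/- replicate 1 was only just below WT replicate 2, and all 3 compound mutant samples were within the range of WT, replicate 3 among its higher values. Lum, a proteoglycan that regulates collagen fibril assembly, was 8.43, 7.64, 7.80 and 7.74 in WT, 7.54, 7.06 and 6.86 in p27-/-, and 6.95, 6.84 and 7.57 in compound mutants. Every mutant sample of both genotypes was below every WT sample for Lum. Dcn, which binds collagen and several growth factors and is the neighbour of Lum on chromosome 10, was 10.94, 10.28, 11.01 and 10.83 in WT, 10.85, 9.73 and 10.13 in p27-/-, and 9.996, 9.88 and 10.74 in compound mutants. Dcn overlapped between all 3 genotypes, with 1 sample of each mutant genotype at the level of WT.

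Of the genes listed as pericyte markers, Enpep separated the genotypes and the others did not. Which cells of the dissected IL held the Enpep RNA was not tested. Pdgfrb, the receptor that pericytes need for recruitment, was 6.28, 5.96, 6.18 and 5.93 in WT, 5.86, 5.42 and 5.99 in p27-/-, and 5.79, 5.52 and 5.96 in compound mutants. Rgs5, a regulator of G protein signaling, was 10.57, 9.83, 9.34 and 10.21 in WT, 9.54, 9.06 and 9.48 in p27-/-, and 8.85, 9.06 and 9.57 in compound mutants. For both genes the mutants sat toward the lower end and overlapped WT, for Rgs5 through WT replicate 3. Cspg4, which encodes the NG2 proteoglycan of pericytes and oligodendrocyte precursors, lay between 2.601 and 2.83 in WT, 2.71 and 2.81 in p27-/-, and 2.67 and 2.73 in compound mutants, under the minimum mean of 3.32 for testing, and was not tested. Enpep, the aminopeptidase A that trims angiotensin II, was 9.11, 8.97, 9.29 and 9.30 in WT, 8.71, 8.69 and 8.57 in p27-/-, and 9.40, 9.34 and 9.37 in compound mutants. All p27-/- samples were below WT and all compound mutant samples above it, so that no 2 genotypes overlapped.

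The contractile markers overlapped WT in both mutants. Acta2, the smooth muscle actin, was 5.99, 5.44, 5.28 and 5.66 in WT, 5.84, 5.55 and 5.67 in p27-/-, and 5.06, 4.86 and 5.49 in compound mutants. Compound mutant samples were below all p27-/- samples for Acta2 but overlapped WT. Tagln, the actin-binding transgelin of smooth muscle, ranged over 4.66 to 5.02 in WT, 4.74 to 5.05 in p27-/- and 4.64 to 4.88 in compound mutants. Its samples overlapped in every pair of genotypes.

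**Figure D2:**
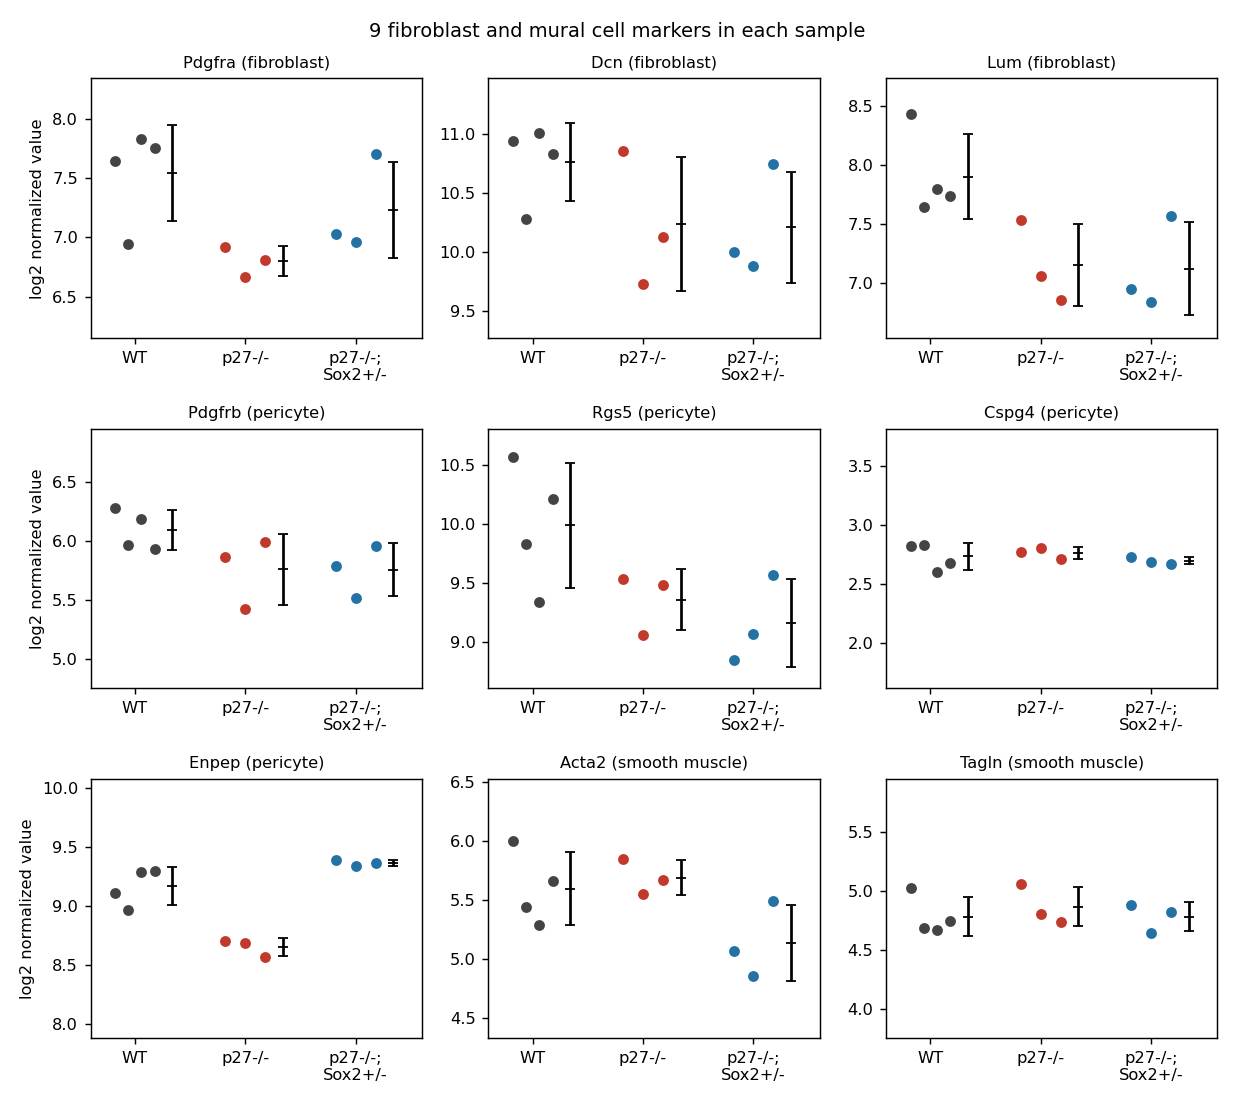
Each panel plots the log2 normalized value (y axis, the same span in every panel) of a marker in the 4 WT (grey), 3 p27-/- (red) and 3 p27-/-;Sox2+/- samples (blue), with the mean and SD in black. Enpep is the panel in which no genotypes overlap, with p27-/- at 8.57 to 8.71, WT at 8.97 to 9.30 and compound mutants at 9.34 to 9.40.

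The comparison of p27-/- with WT asks which markers follow the loss of p27. Among the 8 markers tested, 3 passed an adjusted p of 0.05 and all 3 were lower, where 4.62% of the 17268 genes tested were called lower, 3.16% higher and 7.78% in either direction. Enpep fell by 0.51 on the log2 scale (SE 0.10, 1.43-fold, adjusted p = 0.00728). Pdgfra fell by 0.75 (SE 0.21, 1.68-fold, adjusted p = 0.0459), and Lum fell by 0.75 (SE 0.22, 1.68-fold, adjusted p = 0.049998). The same 3 were the markers whose p27-/- samples all lay below WT, a pattern seen in 10.3% of all tested genes, and no marker had all p27-/- samples above WT (10.2%). The fitted differences of Rgs5 (-0.63, SE 0.24, adjusted p = 0.126), Dcn (-0.53, SE 0.25, adjusted p = 0.22) and Pdgfrb (-0.33, SE 0.16, adjusted p = 0.218) did not pass. Those of Acta2 (0.09, 95% interval -0.29 to 0.48) and Tagln (0.09, -0.17 to 0.35) were small, with intervals on both sides of 0. The fitted difference was below 0 for 6 of the 8 markers, as for 48.4% of all tested genes, and its median was -0.52, against 0.0087 over all tested genes.

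The Enpep call was kept when any of the 10 samples was left out (adjusted p 0.00279 to 0.0486). The Pdgfra and Lum calls were close to the threshold. Pdgfra kept its call without WT replicate 2 (adjusted p = 0.00587) or compound mutant replicate 3 (adjusted p = 0.03) and lost it without any of the other 8 samples (0.0547 to 0.15). Lum kept it without WT replicate 2, p27-/- replicate 1 or compound mutant replicate 3 (adjusted p 0.0372 to 0.0431) and lost it without any of the other 7 (0.0591 to 0.205). Rgs5 gained a call without WT replicate 3 (adjusted p = 0.0362), the WT sample with the least Rgs5.

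The comparison of compound mutant with WT IL, which shares the WT samples, called none of the 8 markers at an adjusted p of 0.05 in limma, where 2.71% of tested genes were called, 0.828% higher and 1.88% lower. The fitted difference was below 0 for 6 of 8 markers (47.9% of tested genes), with a median of -0.40, against 0.0098 over all tested genes. Lum (-0.78, SE 0.22, adjusted p = 0.0742), Rgs5 (-0.83, SE 0.24, adjusted p = 0.0852), Acta2 (-0.46, SE 0.18, adjusted p = 0.187) and Dcn (-0.56, SE 0.25, adjusted p = 0.265) had an unadjusted p under 0.05, which makes 4 of 8 against 17.8% of tested genes. Lum would pass without compound mutant replicate 3 (adjusted p = 0.0441) and Rgs5 without WT replicate 3 (adjusted p = 0.0253). Pdgfra differed by -0.31 (95% interval -0.77 to 0.14) and Pdgfrb by -0.33 (-0.67 to 0.00495). Enpep differed by 0.20 (95% interval -0.0072 to 0.41, adjusted p = 0.3), although its compound mutant samples were all above WT, as were those of 7.02% of tested genes. Lum was the only marker with all compound mutant samples below WT, against 8.01% of tested genes. The 2 differences from WT can be read side by side: for Lum -0.75 in p27-/- and -0.78 in compound mutants, for Dcn -0.53 and -0.56, and for Pdgfrb -0.33 and -0.33.

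The comparison of the mutants asks what the loss of 1 Sox2 copy changes in the absence of p27. Enpep rose by 0.71 on the log2 scale (SE 0.10, 95% interval 0.49 to 0.93, 1.64-fold, adjusted p = 0.0188), as 1 of 8 markers called, where 0.145% of tested genes were called 0.0811% higher and 0.0637% lower. At an unadjusted p under 0.05 were 2 of the 8, Enpep and Acta2, against 6.65% of tested genes, and the fitted difference was below 0 for 6 of 8 (51.4%), with a median of -0.03. The call was kept without any 1 of the 4 WT samples (adjusted p 0.0121 to 0.0282) and lost without any 1 of the 6 mutant samples (0.0614 to 0.156), while the difference stayed between 0.67 and 0.74. Pdgfra was 0.44 higher (95% interval -0.05 to 0.92, adjusted p = 0.834) and Acta2 differed by -0.55 (-0.96 to -0.14, adjusted p = 0.501). Neither passed the test, although the samples of each did not overlap, as for 7.51% of tested genes in the direction of Pdgfra and 7.75% in that of Acta2. The differences of Dcn (-0.03), Lum (-0.03), Pdgfrb (-0.0025), Tagln (-0.08) and Rgs5 (-0.20) had intervals on both sides of 0, the narrowest being -0.36 to 0.19 for Tagln and the widest -0.61 to 0.55 for Dcn.

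**Figure D3:**
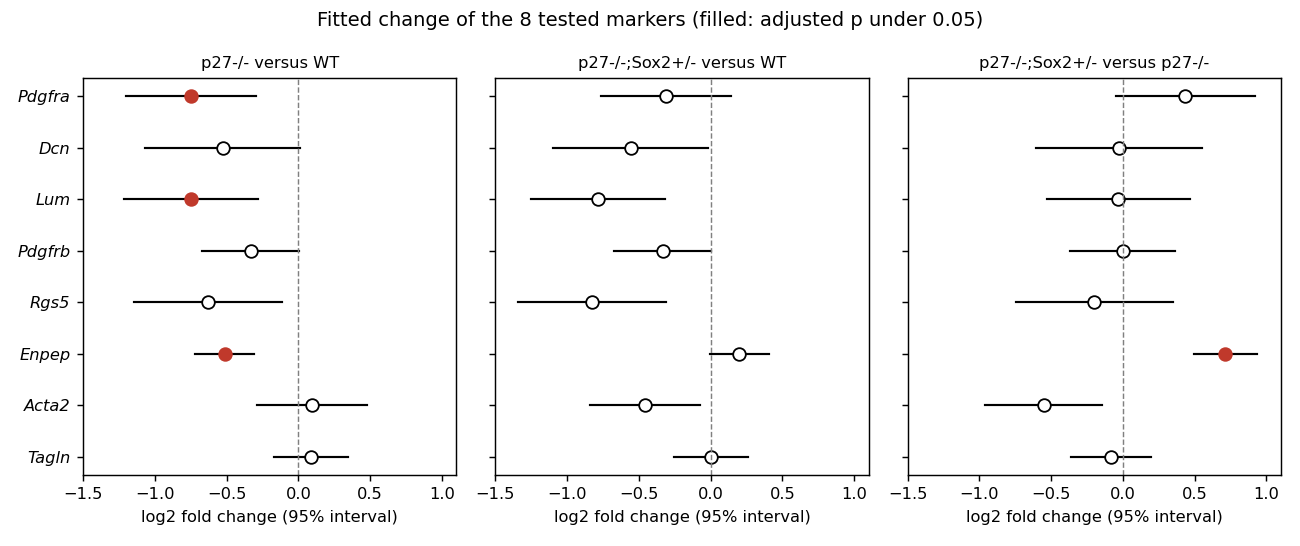
Points give the log2 fold change (x axis) of the 8 tested markers in each of 3 comparisons and lines its 95% interval; a filled red point has an adjusted p under 0.05 over 17268 genes. Pdgfra, Lum and Enpep are filled in p27-/- versus WT, no marker in p27-/-;Sox2+/- versus WT, and Enpep alone between the mutants, at 0.71.

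Enpep was also the least variable of the 8 tested markers. Its SD within genotypes, 0.11 on the log2 scale, was larger than that of 22.7% of tested genes, whereas the SDs of Dcn (0.45), Rgs5 (0.42), Lum (0.37) and Pdgfra (0.35) were larger than those of 97.1% to 98.7%. The order of Enpep, with p27-/- below WT and compound mutants above WT and no overlap, was shared by 10 of 17268 tested genes, or 0.0579%. The Rgs5 samples, in contrast, spanned 1.23 log2 units within WT alone.

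The reference promoters of 5 of the 9 markers were found in the RefSeq set (GRCm38.p6), and 4 of them are printed, of markers that passed a test or moved together, to show the letters before their starts. Each line gives the 150 bases before the annotated start, 5′ to 3′ on the strand of the gene. Capitals mark CArG-like elements (CC, then 6 letters of which at least 5 are A or T, then GG), which bind serum response factor in smooth muscle genes, E-boxes (CANNTG), and ACAAT on either strand, letters found in many SOX binding sites.
Acta2, chr19:34255374-34255523, minus strand, before a start inside the annotated gene: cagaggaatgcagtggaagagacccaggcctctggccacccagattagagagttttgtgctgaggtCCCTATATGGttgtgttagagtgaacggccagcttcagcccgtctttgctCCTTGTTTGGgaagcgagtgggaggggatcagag
Rgs5, chr1:169655351-169655500, plus strand: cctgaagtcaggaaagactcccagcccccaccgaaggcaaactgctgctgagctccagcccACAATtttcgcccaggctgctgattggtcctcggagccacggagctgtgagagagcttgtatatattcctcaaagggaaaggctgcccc
Enpep, chr3:129332750-129332899, minus strand: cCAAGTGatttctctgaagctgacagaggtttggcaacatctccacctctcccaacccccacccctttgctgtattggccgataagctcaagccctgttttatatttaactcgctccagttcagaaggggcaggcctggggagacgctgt
Pdgfra, chr5:75152101-75152250, plus strand, 1 of several annotated starts: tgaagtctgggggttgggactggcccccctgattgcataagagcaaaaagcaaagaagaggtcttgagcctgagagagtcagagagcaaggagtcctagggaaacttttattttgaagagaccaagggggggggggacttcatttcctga
Acta2 held 2 CArG-like elements, 84 and 34 bases before its start, where 5.1% of 32851 promoters held any. Rgs5 held ACAAT 89 bases before the start (17.4% of promoters) and TATATA 30 bases before it (2.97%), and Enpep an E-box at 149 bases (47.7%). None of these motifs was in the Pdgfra window. The motifs were searched on both strands, the capitals do not overlap each other, and a match is a description of the letters.

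The markers tended to deviate together within genotypes. Of 28 pairs among the 8 tested markers, 25 had a correlation above 0 over the 10 samples after the genotype mean was taken out, with a median Pearson's r of 0.54. The same share was not computed over pairs of all tested genes, so whether this is particular to the markers was not tested. For 3 pairs r passed a permutation test adjusted over the 28. The permutations shuffled all 10 deviations freely and made no allowance for the genotype means taken out. Their p-values are therefore too small, and the 3 passes are not secure. Rgs5 and Acta2 were the closest pair (r = 0.90, permutation p = 0.00047, adjusted p = 0.0132, Spearman's rho = 0.87, p = 0.00223, adjusted 0.0624), and r was 0.81 without the 2 most distant samples. Lum and Acta2 followed (r = 0.85, permutation p = 0.00332, adjusted p = 0.031, rho = 0.61, p = 0.0676, adjusted 0.274), but r was 0.56 without 2 samples. Pdgfra and Dcn had r = 0.83 (permutation p = 0.00283, adjusted p = 0.031, rho = 0.83, p = 0.00447, adjusted 0.0626), and 0.75 without 2 samples. No rho passed its adjustment. Enpep stood outside this pattern in part, with r of -0.21 with Rgs5, -0.08 with Pdgfrb and -0.05 with Acta2, and 0.65 with Pdgfra (adjusted p = 0.146).

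Rgs5 and Acta2 also tended to vary with markers of endothelial cells, the cells that mural cells wrap. The permutation p-values of these relations are too small for the same reason, so their passes are not secure. Among 24 relations between the 8 markers and 3 marker lists, Rgs5 against the mean of 12 endothelial genes had r = 0.85 (permutation p = 0.00237, adjusted p = 0.0284, rho = 0.79, p = 0.00936, adjusted 0.0749, r = 0.83 without 2 samples). Acta2 had r = 0.81 (permutation p = 0.00486, adjusted p = 0.0389, rho = 0.85, p = 0.00266, adjusted 0.0319, r = 0.79 without 2 samples). Enpep had r = -0.08 with the same genes. Of the cell type lists, only the endothelial, posterior lobe and melanotroph lists were set against the markers. Whether the relations of Rgs5 and Acta2 are particular to endothelial genes was not tested. With the mean of 7 melanotroph markers, r lay between -0.21 for Dcn and 0.17 for Lum, and none passed. Melanotroph markers themselves differed by genotype. In p27-/- against WT 6 of the 7 had a fitted difference above 0, and 3 passed in limma. Oacyl (0.77, adjusted p = 0.00161) and Pcsk2 (0.53, adjusted p = 0.0352) were higher and Pcsk1 (-0.45, adjusted p = 0.0206) was lower. Their part in the stromal marker differences was not tested. All 12 tested endothelial markers had a fitted difference below 0 in p27-/- against WT, as had 48.4% of all tested genes. Against 7.78% of tested genes, 2 of the 12 passed, the VEGF receptor genes Kdr (-0.83, SE 0.16, adjusted p = 0.00966) and Flt1 (-0.75, SE 0.19, adjusted p = 0.029). Both also passed in compound mutants against WT (Kdr -0.67, adjusted p = 0.0459, and Flt1 -0.80, adjusted p = 0.0379), where 2.71% of tested genes did. The summed level of all 14 listed genes was 598 to 774 in WT, 454 to 573 in p27-/- and 487 to 638 in compound mutants on the linear scale, with the tight junction gene Cldn5 at a mean log2 value of 1.83. How these RNA levels relate to the ectopic vessels that the study saw in p27-/- IL was not tested.

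Pdgfra was high in the samples with high posterior lobe markers. The 4 samples with Pdgfra between 7.65 and 7.83, WT replicates 1, 3 and 4 and compound mutant replicate 3 (7.70), were those with a posterior lobe marker mean of 0.54 to 0.87. The other 6 samples, of all 3 genotypes, had Pdgfra between 6.66 and 7.03 and a posterior lobe mean of -0.76 to -0.03. After the genotype means were taken out, Pdgfra and the posterior lobe mean had r = 0.95 over the 10 samples, the highest of the 24 relations (permutation p = 0.0001, adjusted p = 0.0024, rho = 0.90, p = 0.00082, adjusted 0.0197, r = 0.85 without 2 samples). These permutation p-values, too, made no allowance for the genotype means. For the other markers, r with the posterior lobe mean lay between 0.15 for Tagln and 0.65 for Dcn, with 0.54 for Enpep, and none passed. The summed posterior lobe level was 304 to 1296 in WT, 381 to 497 in p27-/- and 246 to 914 in compound mutants. All 8 posterior lobe markers had a fitted difference below 0 in both mutants, against 48.4% of tested genes in p27-/- and 47.9% in compound mutants. None passed (3 of 8 at an unadjusted p under 0.05 in each mutant by limma, against 24.1% of tested genes in p27-/- and 17.8% in compound mutants). None of these markers was at 0.

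With the posterior lobe marker mean added to the fit as a covariate, a choice made after the data were seen, the Pdgfra difference between p27-/- and WT was -0.38 (SE 0.13, adjusted p = 0.166) and that of Lum -0.56 (SE 0.23, adjusted p = 0.238). For Enpep it was -0.45 (SE 0.11, adjusted p = 0.0528) against WT and 0.72 (SE 0.10, adjusted p = 0.0235) between the mutants. The calls of Pdgfra, Lum and Enpep against WT were thus lost, and the Enpep call between the mutants was kept. Genes of the oligodendrocyte lineage, in which Pdgfra is also expressed, moved with the same 4 samples. The centred mean of 6 tested genes was 0.12 to 0.74 in those 4 samples and -0.43 to -0.11 in the other 6, and the summed level of all 12 listed genes in the table was 736 to 1962 in WT, 899 to 991 in p27-/- and 754 to 1263 in compound mutants. The precursor markers Olig2, Sox10, Gpr17 and Neu4 were under the minimum, and 1 of the 6, Bcan, was lower in p27-/- (-1.26, adjusted p = 0.0283) and in compound mutants (-1.24, adjusted p = 0.0498). Of 8 leptomeningeal fibroblast genes all 8 had a fitted difference below 0 in both mutants. In each mutant 1 passed in limma, Aldh1a1 (-0.998, SE 0.19, adjusted p = 0.00876 in p27-/- and -0.90, adjusted p = 0.0256 in compound mutants). The summed level of all 10 listed genes was 1583 to 6811 in WT, 1065 to 1539 in p27-/- and 1017 to 2000 in compound mutants. Over all tested genes, 48.4% had a difference below 0 and 7.78% passed in p27-/-, and 47.9% and 2.71% in compound mutants. Those shares apply to each list in this paragraph. The mean of stem cell markers also differed by genotype: over 7 tested genes, centred, it was 0.12 to 0.33 in WT, -0.30 to -0.025 in p27-/- and -0.23 to 0.018 in compound mutants, without overlap with WT. All 7 had a fitted difference below 0 in p27-/- and 5 of 7 in compound mutants, and 0 and 1 passed. The 1 that passed in limma was Lcn2, which had the largest difference there (-1.71, adjusted p = 0.0209). The list also holds Sox2 (-0.46), of which compound mutants lack 1 copy, so their mean is set in part by the design. The summed level of all 8 listed genes was 1710 to 2260 in WT, 1334 to 1652 in p27-/- and 1395 to 1629 in compound mutants. The part of these cell types in the marker differences was not tested beyond the posterior lobe covariate.

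**Figure D4:**
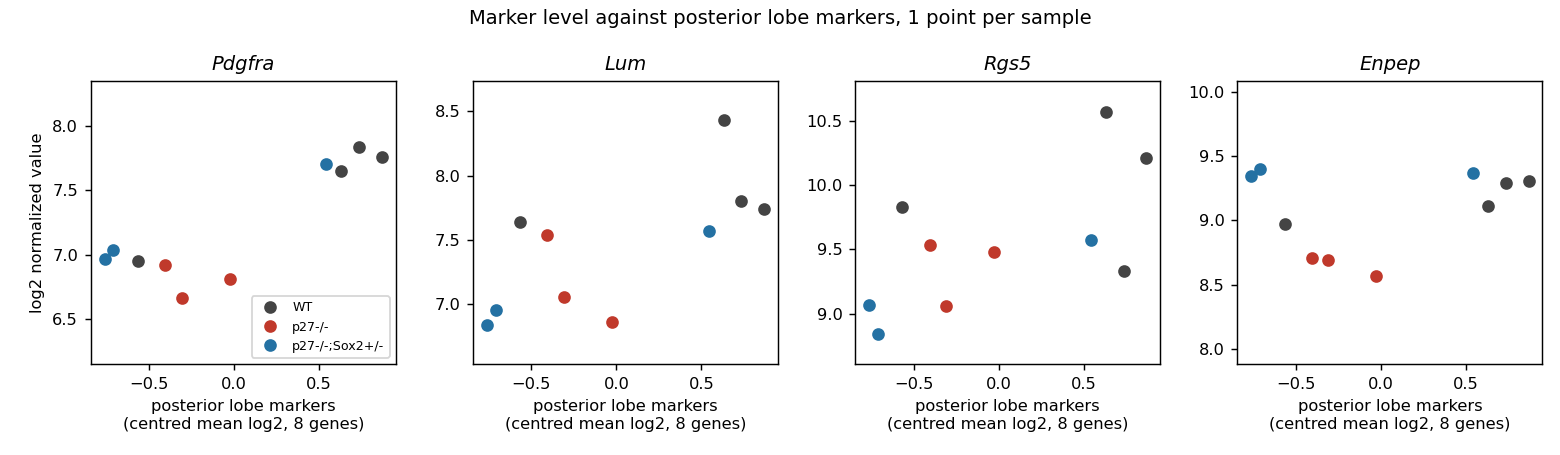
Each point is a sample, with the centred mean log2 value of 8 posterior lobe markers on the x axis and the log2 normalized value of Pdgfra, Lum, Rgs5 or Enpep on the y axis (the same span in each panel; WT grey, p27-/- red, p27-/-;Sox2+/- blue). The 4 samples to the right, at 0.54 to 0.87, are those with Pdgfra of 7.65 to 7.83. Compound mutant Enpep stays between 9.34 and 9.40 on both sides, whereas WT Enpep is lowest (8.97) in the WT sample to the left.

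Further stromal genes were counted from lists of fibroblast and matrix, pericyte and smooth muscle genes, with 66 of 83 above the minimum. In p27-/- against WT 9 of the 66 passed (13.6%, against 7.78% of all tested genes), 8 lower and 1 higher, with a median of -0.20. In compound mutants 3 passed (4.55% against 2.71%), 2 lower and 1 higher, with a median of -0.19. None passed between the mutants in limma. At an unadjusted p under 0.05 in limma were 9 of 66, against 6.65% of tested genes, 8 of them higher and 1 lower in compound mutants. Without p27-/- replicate 2 or 3 the 9 calls in p27-/- against WT became 3 or 4, and with the posterior lobe covariate 2. Without WT replicate 2 the 3 calls in compound mutants became 5, and without compound mutant replicate 2 they became 1.

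Among fibroblast and matrix genes, next to Pdgfra and Lum, the actin-severing gelsolin gene Gsn (-0.76, SE 0.16, adjusted p = 0.0116), the fibril-associated collagen gene Col12a1 (-0.67, SE 0.14, adjusted p = 0.0112) and the intermediate filament gene Vim (-0.60, SE 0.17, adjusted p = 0.0491) were lower in p27-/- IL. Prrx1, a mesenchymal transcription factor, was higher (0.48, SE 0.10, adjusted p = 0.0135). The major fibrillar collagen genes Col1a1 (0.09, SE 0.25) and Col3a1 (0.06, SE 0.23) did not pass. In compound mutants Gsn was lower (-0.63, adjusted p = 0.0462). Beside Dcn and Lum, 8 of 12 other small leucine-rich proteoglycan genes were tested. Of these, 1 passed in each mutant, against 7.78% of tested genes in p27-/- and 2.71% in compound mutants. It was Prelp, which anchors basement membrane to matrix (-0.95, adjusted p = 0.00702 in p27-/- and -0.85, adjusted p = 0.0229 in compound mutants).

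Among pericyte genes, the purinergic receptor gene P2ry14 was lower in both mutants (-1.08, SE 0.16, adjusted p = 0.00221 in p27-/- and -1.08, adjusted p = 0.00521 in compound mutants). The Notch target Heyl (-0.62, SE 0.14, adjusted p = 0.0155) and the forkhead factor gene Foxc1 (-0.80, SE 0.18, adjusted p = 0.0193) were lower in p27-/- IL. Gucy1b1, a subunit of the nitric oxide receptor guanylate cyclase, was higher in compound mutants (0.63, SE 0.11, adjusted p = 0.0104). The pericyte channel genes Kcnj8 (-0.11, SE 0.11) and Abcc9 (-0.35, SE 0.19) did not pass in p27-/-, and Higd1b, Ndufa4l2, Cox4i2, Tbx18 and Atp13a5 were under the minimum, as was Cspg4. Among smooth muscle genes the actin-binding Synpo2 (-0.62, SE 0.10, adjusted p = 0.00256) and Cald1 (-0.43, SE 0.11, adjusted p = 0.0337) were lower in p27-/-. Testing covered 16 of the 23 further smooth muscle genes present, among them the contractile markers Mylk, Myl9, Smtn and Myh11 at mean log2 values of 8.43, 5.76, 5.24 and 4.41. Cnn1, Des, Actg2, Lmod1 and Myocd were under the minimum, with Myocd, the coactivator of Acta2 and Tagln, at 0.32.

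**Figure D5:**
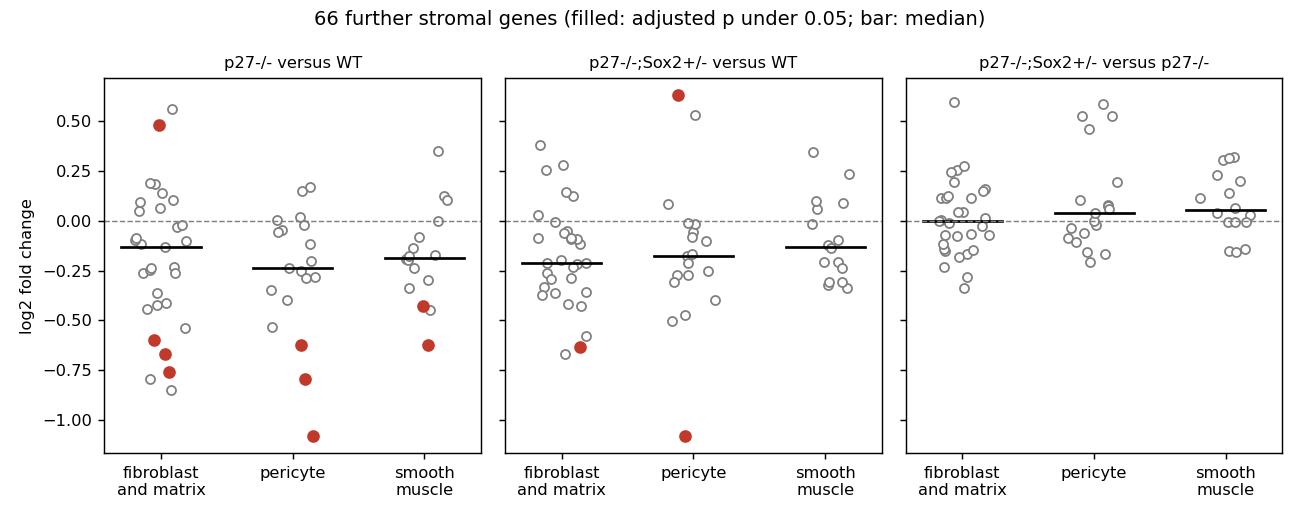
Each point is 1 of 66 further stromal genes, by list (x axis), with its log2 fold change (y axis) in 3 comparisons; filled red points have an adjusted p under 0.05 and black bars are medians. Of the 9 filled points in p27-/- versus WT 8 are below 0, and none is filled between the mutants.

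In the PDGF pathway that the receptors Pdgfra and Pdgfrb belong to, the ligand genes did not pass in any comparison. Pdgfa differed by -0.19 (SE 0.12) in p27-/- against WT, Pdgfb by -0.03 (SE 0.10), Pdgfc by -0.36 (SE 0.18) and Pdgfd by 0.02 (SE 0.11). Of the 8 tested genes of the list 2 passed in p27-/-, both lower: the endocytic receptor gene Lrp1, which interacts with the Pdgfrb receptor (-0.56, SE 0.12, adjusted p = 0.0134), and Plat, the protease that activates PDGF-C (-0.70, SE 0.16, adjusted p = 0.0201). Plat was also lower in compound mutants (-0.90, SE 0.16, adjusted p = 0.0104), as the 1 of the 8 that passed there. Over all tested genes, 7.78% passed in p27-/- and 2.71% in compound mutants.

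The genes whose values deviated most like each marker within genotypes were taken as the highest Pearson's r over 10 samples among 14854 tested genes with a symbol, a choice of extremes that is given as a description. For Pdgfra they were Scn7a, Col25a1 and Mamdc2 (each r = 0.97), of which Col25a1 is one of the posterior lobe markers above. For Dcn they were Gng12 (0.98), Sptlc2 (0.97) and E430025E21Rik (0.96), and for Lum Sdf4, Il33 and Aldh1a1 (each 0.96). Pdgfrb was followed by Pi15 (0.93), Ebf1 (0.93) and 2510002D24Rik (0.92), and Rgs5 by Lsm1 (0.97), the endothelial angiopoietin receptor gene Tek (0.96) and P2rx7 (0.96). Enpep had Tox (0.97) and Slc44a2 (0.95) among its closest genes, neither of which is on the endothelial or posterior lobe lists. Acta2 was followed by Epas1 (0.97), AW112010 (0.96) and Jagn1 (0.94), and Tagln by Tm2d3 (0.98), 9030418K01Rik (0.97) and Rab7 (0.95).

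By identifier and position (GRCm38.p6), the markers that passed a test were Enpep (ENSMUSG00000028024, chr3:129269177-129332749), Pdgfra (ENSMUSG00000029231, chr5:75151322-75198206) and Lum (ENSMUSG00000036446, chr10:97565501-97572703), with Dcn (ENSMUSG00000019929) at chr10:97479500-97518163. Rgs5 lies at chr1:169655501-169695813 and Acta2 at chr19:34240336-34255585.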

How the data were processed

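Total RNA of dissected IL was sequenced as 1 library per sample. Per the labels and the methods of the study, the authors aligned reads with STAR 2.5.2a to GRCm38, counted them per gene with RSEM 1.3.30 without strand, normalized with DESeq2 1.18.1 and deposited log2 values for 29527 genes. The transformation is not given in the sources used here, so a fold change is a difference of deposited log2 values, and read depth is unknown from the table, whose column means were 4.35 to 4.37. The number of samples (4, 3 and 3) limits the precision. Overlapping genes cannot be told apart without strand. The labels give no batch, and the p-values of limma set each difference against the spread between these samples.

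The 17268 genes whose mean reached 3.32 on the log2 scale (10 normalized units) were fitted with limma 3.58.1 in R 4.3.3 (genotype means of all 10 samples, mean-variance trend), with Benjamini-Hochberg adjustment over all of them and a threshold of 0.05. The model was tested on simulated data. Correlations used 100000 permutations (two-sided) run in numpy 2.4.6 (Python 3.11.15, pandas 2.3.3), and figures were drawn in matplotlib 3.10.9. The permutations shuffled deviations across genotypes without allowance for the genotype means taken out, so their p-values are too small. Symbols were found for 22709 rows, 5 list genes through an older symbol. Exon length came from the union of annotated exons, and positions and promoters from RefSeq.

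The 9 markers and all lists were chosen with earlier results of these data known. Named besides the markers were genes with the smallest p of each list in p27-/- against WT, those past the threshold elsewhere, and a few defining markers chosen after their values were seen. Among the genes most like a marker, 1 is not reported here. Alternatives changed the filter (none, or a mean of 50), the samples fitted (only the genotypes compared, or each sample left out), the scaling (quantile normalization or centring on the median) and the model (array weights, no trend, Xist as a covariate, or a block for the replicate number).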

Additional observations from a re-analysis of the deposited data

Results flagged for a closer look

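The WT samples differed in their posterior lobe markers: WT replicate 2 had a centred posterior lobe mean of -0.57 against 0.63 to 0.87 in the other 3, a gap of 0.834 of the whole WT range. It was the only such case among 23 measures examined in WT, where chance gives about 1.15. Pdgfra in WT replicate 2 (6.95) was also the lowest of the WT samples, and without that sample the Pdgfra difference between p27-/- and WT was -0.95 in place of -0.75.

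The change of Enpep against WT differed between the mutants, by 0.71 on the log2 scale (95% interval 0.49 to 0.93, adjusted p = 0.0188 by limma). It was lower than every WT sample in 3 of 3 p27-/- samples and higher than every WT sample in 3 of 3 compound mutant samples.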

How the results depend on the processing

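Of 474 marker fold changes recomputed under 20 other settings, 405 kept their direction and side of the threshold. In p27-/- against WT, 3 of the 9 markers were called. The count was 1 with no filter, no trend, quantile normalization or the replicate block, and 0 with the posterior lobe covariate. It was 1 to 3 with a sample left out, and reached 4 among the other settings. For further stromal genes it was 2 with that covariate and 3 to 13 with a sample left out. Over all genes (1343) it was 831 with no filter, 807 with only the genotypes compared, 595 with the block and 364 with the covariate. It was 403 to 1709 with a sample left out, and reached 1764 among the other settings. In compound mutants against WT no marker was called, but 3 with array weights, 1 with Xist as a covariate and 0 to 1 with a sample left out. Further stromal genes numbered 8 with array weights and 1 to 5 with a sample left out. All genes (468) numbered 260 with only the genotypes compared, 1240 with array weights, 209 with the block, 100 with the covariate and 80 to 658 with a sample left out. Between the mutants the 1 marker called became 0 with no filter or the block, 2 with array weights and 0 to 1 with a sample left out, and further stromal genes numbered 3 with array weights. All genes (25) numbered 6 with no filter, 45 with only the genotypes compared, 8 with no trend, 283 with array weights, 15 with quantile normalization, 2 with the block and 0 to 41 with a sample left out. The cause of these shifts was not tested.

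Directions turned only for differences near 0, apart from Pdgfra in compound mutants against WT, which was 0.095 with the posterior lobe covariate. Tagln in that comparison was -0.0496 with array weights, -0.0083 with the block and -0.0033 with Xist. Between the mutants Dcn was 0.0015 and Pdgfrb 0.0089 with the posterior lobe covariate. With a sample left out, Acta2 in p27-/- against WT was -0.011 to 0.23 and Tagln -0.0067 to 0.17, and Tagln in compound mutants -0.0452 to 0.0831. Between the mutants Dcn was -0.30 to 0.28, Lum -0.26 to 0.16, Pdgfrb -0.17 to 0.12 and Tagln -0.15 to 0.0093. The replicate numbers did not pair the samples: of 9 same-numbered pairs, 1 had a correlation of deviations above 0.1 (range -0.24 to 0.18), and 1 of 9 samples was closest to its own number. The block, in which WT replicate 4 stands alone, left the Enpep difference at -0.47 (adjusted p = 0.0439) against WT and 0.71 (adjusted p = 0.0805) between the mutants.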
